A study of Mus musculus with 30 samples.

Results

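The genes described here encode the liver's conjugating transferases, which attach glutathione, glucuronic acid or sulfate to drugs, hormones and other small molecules. They were taken by symbol from the array annotation: the alpha, mu, pi, theta, kappa, omega and zeta classes of the glutathione transferases (Gst), the UDP-glucuronosyltransferases (Ugt) and the sulfotransferases (Sult), each only where a probe set carried a single gene symbol. The rule found 41 genes, namely 17 Gst, 9 Ugt and 15 Sult genes, among the 18820 genes with a probe set of their own and the 35556 probe sets of the array. Where a gene had more than 1 such probe set, which was the case for *Gstm3*, the one with the highest mean over the 30 arrays was used. Genes of the Ugt1a, Gsta1/Gsta2 and Sult2a1/Sult2a2 groups share their probe sets with close relatives and are therefore not among the 41.

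Conjugation is the second step of detoxification, in which a transferase joins a polar group from a cofactor to a molecule so that it can leave the cell in bile or urine. Glutathione transferases neutralize electrophiles with glutathione, glucuronosyltransferases use UDP-glucuronic acid on steroids, bile acids, bilirubin and drugs, and sulfotransferases use the sulfate donor PAPS on phenols, steroids and bile acids. The hepatocyte carries most of this capacity, and nuclear receptors, the antioxidant factor NRF2 and hepatocyte factors such as HNF1 and HNF4 are known to govern many of the genes.

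Livers came from male C57BL/6 mice of about 8 weeks of age and were measured 1 array per mouse. PPARα-/- mice (B6;129S4-Pparatm1Gonz/J line), CREB3L3-/- mice and combined PPARα/CREB3L3-/- mice, obtained by crossing both lines, were set against wild-type (WT) mice, either on a ketogenic diet for 4 days and killed in the fed state or after a 16-h fast. On each regimen there were 3 PPARα-/-, 4 CREB3L3-/-, 4 PPARα/CREB3L3-/- and 4 WT livers. Both deletions were present in every cell type and from birth, so that none of the groups isolates the hepatocyte, and a chow-fed group was not analysed here. The numbers are livers of different mice, and every value given below is a log2 expression value after RMA, the authors' normalization, on which a difference of 1 is a 2-fold difference. Levels of different genes were not compared with each other, since each rests on its own probes.

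The *Creb3l3* probe set read between 4.29 and 5.36 in all livers labelled as lacking CREB3L3 and between 9.49 and 11.28 in all others, without overlap. The *Ppara* probe set was lower in ketogenic PPARα-/- livers (7.22 to 7.95) and PPARα/CREB3L3-/- livers (6.62 to 7.62) than in WT livers (10.37 to 10.54), but it also read lower in ketogenic CREB3L3-/- livers (8.01 to 8.99), and since the allele removes only part of the gene it is no test of the label. After the fast it read 8.96 to 9.35 in PPARα-/- livers and 7.25 to 9.09 in PPARα/CREB3L3-/- livers, against 10.08 to 10.41 in WT livers. The fasted PPARα-/- difference of -1.04 did not pass the test used below. Arrays of a group correlated with each other at r = 0.978 to 0.99, array medians lay between 4.22 and 4.38, and no array duplicated another. Summed hepatocyte markers were high in every group (15.04 at the lowest). Of the 41 genes, 31 had at least 1 group mean above the median of all values and 10 did not, namely *Gsto2*, *Gstt4*, *Sult1c1*, *Sult2a6*, *Sult2b1*, *Sult3a1*, *Sult3a2*, *Sult4a1*, *Sult6b1* and *Sult6b2*. None of these 10 passed the test in any comparison with WT.

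Many of the genes are neighbours. In the RefSeq promoter table for mouse build GRCm38.p6, which held 38 of the 41, 11 lay within 0.685 Mb of chromosome 5, all 8 Ugt2 genes followed by *Sult1b1*, *Sult1d1* and *Sult1e1*, with *Ugt2a2* and *Ugt2a1* as the only other genes between them. Another 6, the Gstm genes, lay within 0.113 Mb of chromosome 3, and *Gstt3*, *Gstt1* and *Gstt4* within 0.0411 Mb of chromosome 10. The promoters of the glucuronosyltransferases are shown because these 9 genes fell together, as described further on. In 8 of the 9 windows, each reaching 250 bases before and 50 bases after the RefSeq start, the core of the palindrome that HNF1 binds was found, read as GTTA and, after 4 bases of any kind, TNAAC (N standing for any base), against 172 of 32851 windows over all genes, or 0.524% (both strands searched). None of the 22 Gst windows and none of the 17 Sult windows held it, and the exception among the Ugt genes was *Ugt2a3*. The motif was picked after the sequences had been read, the Ugt2b promoters share ancestry and are not independent of each other, and a match is a description of letters, not a bound site. The stretches below run 5′ to 3′ on the gene's strand, 35 bases to each side of the match, with the match in capitals.
Ugt2b34, chr5:86906963-86907045, minus strand: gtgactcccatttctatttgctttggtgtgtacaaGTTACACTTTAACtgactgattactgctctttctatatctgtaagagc
Ugt2b1, chr5:86926545-86926627, minus strand: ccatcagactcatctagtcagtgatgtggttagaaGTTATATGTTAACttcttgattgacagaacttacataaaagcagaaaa
Ugt2b35, chr5:87000755-87000837, plus strand: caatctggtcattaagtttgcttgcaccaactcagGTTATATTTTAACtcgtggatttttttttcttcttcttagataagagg
Ugt2b36, chr5:87092572-87092654, minus strand: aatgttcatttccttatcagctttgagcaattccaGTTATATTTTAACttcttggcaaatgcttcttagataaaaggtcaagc
Ugt2b5, chr5:87140354-87140436, minus strand: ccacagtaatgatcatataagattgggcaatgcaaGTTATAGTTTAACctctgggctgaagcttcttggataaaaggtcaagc
Ugt2b37, chr5:87254819-87254901, minus strand: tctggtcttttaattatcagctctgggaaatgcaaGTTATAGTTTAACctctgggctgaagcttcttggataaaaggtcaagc
Ugt2b38, chr5:87424220-87424302, minus strand: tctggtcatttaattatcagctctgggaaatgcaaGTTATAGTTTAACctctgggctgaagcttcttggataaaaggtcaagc
Ugt3a1, chr15:9279664-9279746, plus strand: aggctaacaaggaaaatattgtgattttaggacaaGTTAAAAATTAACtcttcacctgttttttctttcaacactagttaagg
The match began 61 to 89 bases before the start in the Ugt2b genes and 130 bases before it in *Ugt3a1*. It lay on the gene's own strand in the Ugt2b genes, whereas the match of *Ugt3a1* can be read on both strands. The windows of *Ugt2b5*, *Ugt2b36*, *Ugt2b37* and *Ugt2b38* also shared an unbroken run of 22 bases, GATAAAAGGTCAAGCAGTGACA, found in no other window of the table, and those of *Ugt2b37* and *Ugt2b38* were identical over 91.3% of their length. The antioxidant response core TGACNNNGC occurred in 12.4% of all windows and in those of *Gsta3* and *Gstm7* among the 41 genes.

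Ketogenic CREB3L3-/- livers stood apart by the number of conjugating genes that were lower. Relative to WT livers on the same diet, 19 of the 41 were lower and 3 higher (limma, P under 0.001 and a fold change beyond 1.2), against a background of 11.9% lower and 16.7% higher among all 18820 genes. In ketogenic PPARα-/- livers 5 were lower and 5 higher (background 7.15% lower and 6.45% higher), and in ketogenic PPARα/CREB3L3-/- livers 7 were lower and 7 higher (background 10.3% lower and 7.44% higher). After the fast the changes ran mainly upward: 5 higher and 2 lower in PPARα-/- livers (background 3.11% and 2.58%), and 9 higher and 1 lower in PPARα/CREB3L3-/- livers (background 5.81% and 3.95%). In fasted CREB3L3-/- livers none passed (background 0.648% higher and 0.893% lower). There, 7 of the 41 had an unadjusted P under 0.05, and the IBMT variant of the test called 0 as well. All knockout groups of a regimen were set against the same 4 WT livers, so that their counts are not independent of each other.

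In all, 28 genes passed in at least 1 of the 6 comparisons with WT and 13 in none, the 10 dim genes plus *Gstm4*, *Gstm7* and *Gstp1*. Several counts depended on which arrays entered the fit. With only the arrays of 1 regimen, 6 genes passed in ketogenic PPARα-/- livers, 9 in ketogenic PPARα/CREB3L3-/- livers, 11 in fasted PPARα-/- livers, 1 in fasted CREB3L3-/- livers and 16 in fasted PPARα/CREB3L3-/- livers. The split of higher and lower calls over all genes also moved when each array was centred on its own median. The share of higher calls was then 25.7% against 42.1% in fasted CREB3L3-/- livers and 45.2% against 59.5% in fasted PPARα/CREB3L3-/- livers, where the conjugating genes stood at 7 higher and 2 lower.

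**Figure D1:**
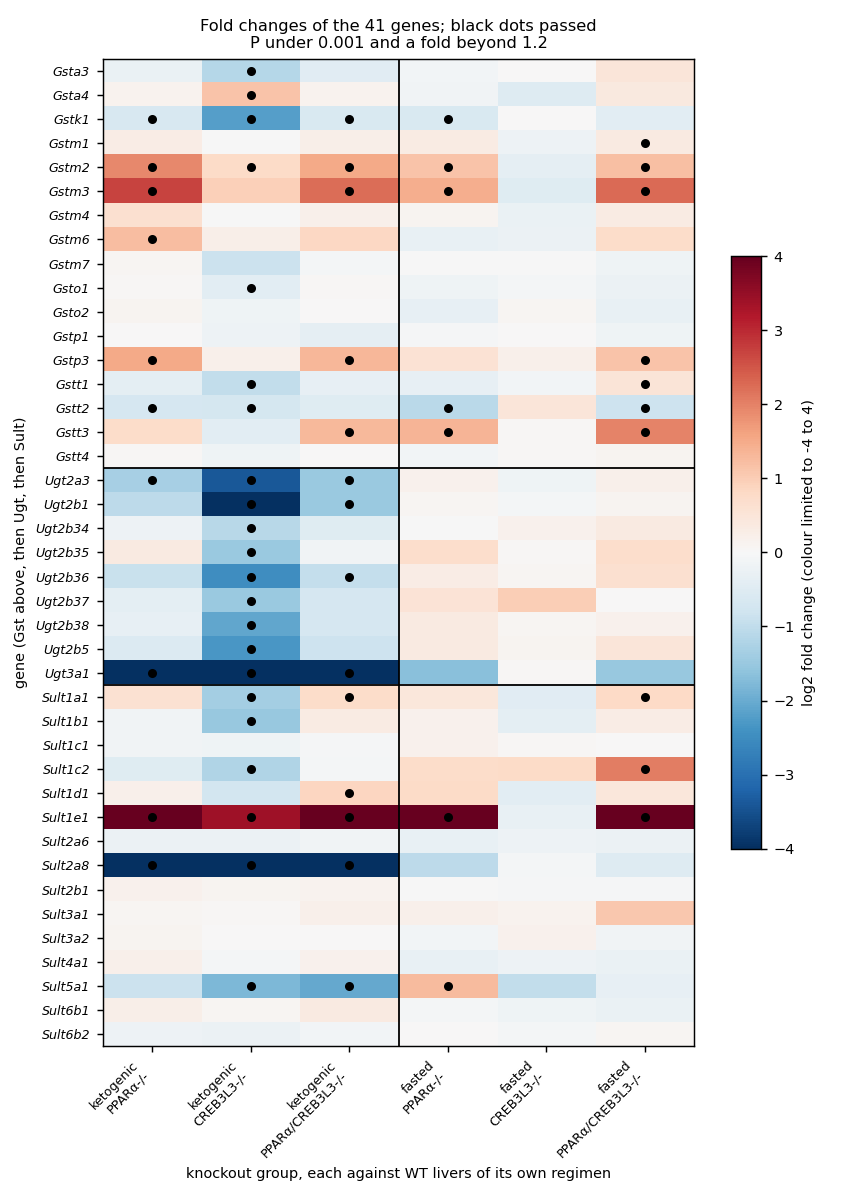
Log2 fold change (colour) of each of the 41 genes (rows, Gst above, then Ugt, then Sult) in the 6 knockout groups (columns), each over WT livers of its own regimen, with a black dot where P was under 0.001 and the fold beyond 1.2. In the ketogenic CREB3L3-/- column 19 genes were lower, all 9 Ugt genes among them, and the fasted CREB3L3-/- column has no dot.

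All 9 glucuronosyltransferase genes fell in ketogenic CREB3L3-/- livers. Their median log2 fold change was -2.32, with a range of -5.24 to -1.12, against a median of -0.42 over the 41 genes and -0.05 over all genes. In ketogenic PPARα-/- livers the family median was -0.56 and 2 genes fell, and in PPARα/CREB3L3-/- livers it was -0.82 and 4 genes fell. In the fasted groups no Ugt gene passed (medians 0.29, 0.07 and 0.20 in PPARα-/-, CREB3L3-/- and PPARα/CREB3L3-/- livers), with an unadjusted P under 0.05 for 2, 1 and 3 of the 9 in the same order.

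*Ugt3a1*, whose human counterpart transfers N-acetylglucosamine in place of glucuronic acid, had the steepest decrease of the family. It read 6.45, 6.13 and 6.58 in ketogenic PPARα-/- livers, 7.39, 4.28, 4.43 and 4.83 in CREB3L3-/- livers and 6.37, 6.56, 5.96 and 6.55 in PPARα/CREB3L3-/- livers, against 10.29, 10.46, 10.57 and 10.56 in WT livers. Every knockout liver was below every WT liver, and 3 of the 4 CREB3L3-/- livers were below all livers of the other groups. The log2 fold changes were -4.08 ± 0.47 (SE), -5.24 ± 0.44 and -4.11 ± 0.44 for PPARα-/-, CREB3L3-/- and PPARα/CREB3L3-/- livers (adjusted p = 2.46e-07, 3.19e-10 and 4.21e-08). After the fast it read 8.92, 9.76 and 8.97 in PPARα-/- livers, 10.82, 11.02, 10.81 and 11.16 in CREB3L3-/- livers and 9.98, 8.10, 9.63 and 9.83 in PPARα/CREB3L3-/- livers, against 10.75, 11.03, 10.76 and 11.02 in WT livers. The PPARα-lacking fasted livers thus lay below WT without overlap, at log2 fold changes of -1.67 ± 0.47 and -1.51 ± 0.44, but neither passed (adjusted p = 0.0322 and 0.0225). On the ketogenic diet the probe sets shared with *Ugt3a2* fell by less, at -1.74, -1.28 and -1.76 in PPARα-/- livers. They were at -3.38, -3.03 and -3.40 in CREB3L3-/- livers and at -1.49, -1.29 and -1.51 in PPARα/CREB3L3-/- livers. Which of these genes gave their signal cannot be told apart.

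The Ugt2 genes, which conjugate steroids, bile acids and many drugs, showed the decrease mainly in CREB3L3-/- livers. *Ugt2b1* read 9.04, 6.18, 5.46 and 6.73 in ketogenic CREB3L3-/- livers, against 11.21, 11.30, 11.01 and 11.17 in WT livers, a fall of 20.0-fold (log2 fold change -4.32 ± 0.39, adjusted p = 1.36e-09). In the other ketogenic knockouts it read 9.90, 10.28 and 10.19 in PPARα-/- livers and 9.73, 9.98, 9.19 and 9.81 in PPARα/CREB3L3-/- livers, and only the combined knockout passed (log2 fold change -1.5 ± 0.39, adjusted p = 0.00575, against -1.05 ± 0.42, adjusted p = 0.1). In contrast, the livers of the 4 fasted groups lay between 11.39 and 11.91. *Ugt2a3*, which in humans acts on bile acids, read 9.29, 9.32 and 9.21 in ketogenic PPARα-/- livers, 8.35, 6.43, 6.57 and 7.52 in CREB3L3-/- livers and 9.21, 9.40, 8.47 and 9.37 in PPARα/CREB3L3-/- livers, against 10.42, 10.49, 10.64 and 10.87 in WT livers. It fell in all 3 knockouts, by log2 fold changes of -1.33 ± 0.27, -3.39 ± 0.25 and -1.49 ± 0.25 (adjusted p = 0.000731, 4.42e-11 and 5.52e-05), and no ketogenic knockout liver overlapped with WT. The fasted livers of all groups lay between 10.95 and 11.50.

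*Ugt2b36* read 10.36, 10.19 and 10.14 in ketogenic PPARα-/- livers, 9.79, 7.90, 8.05 and 8.88 in CREB3L3-/- livers and 10.18, 10.19, 9.78 and 10.54 in PPARα/CREB3L3-/- livers, against 11, 11.10, 11.16 and 11.24 in WT livers. It passed in CREB3L3-/- livers (log2 fold change -2.47 ± 0.23, adjusted p = 2.91e-09) and in PPARα/CREB3L3-/- livers (-0.95 ± 0.23, adjusted p = 0.00342), while PPARα-/- livers, at -0.89 ± 0.25, did not pass (adjusted p = 0.0132). *Ugt2b5* read 9.69, 7.98, 7.58 and 9.25 in CREB3L3-/- livers, against 10.88, 11.12, 10.81 and 10.99 in WT livers (log2 fold change -2.32 ± 0.26, adjusted p = 6.38e-08), and *Ugt2b38* read 7.13, 5.98, 5.09 and 6.67, against 8.09, 8.45, 8.11 and 8.53 (-2.08 ± 0.26, adjusted p = 3.33e-07). For both, the livers of the other 2 ketogenic knockouts lay below every WT liver, at 9.69 to 10.46 for *Ugt2b5* and 7.29 to 8.04 for *Ugt2b38*, but neither knockout passed. The remaining members, *Ugt2b34*, *Ugt2b35* and *Ugt2b37*, passed in CREB3L3-/- livers and in no other knockout, with log2 fold changes of -1.12 ± 0.18, -1.49 ± 0.22 and -1.49 ± 0.32. Probe sets of such close paralogs may take up each other's transcripts, so that the values of single Ugt2b genes are uncertain.

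**Figure D2:**
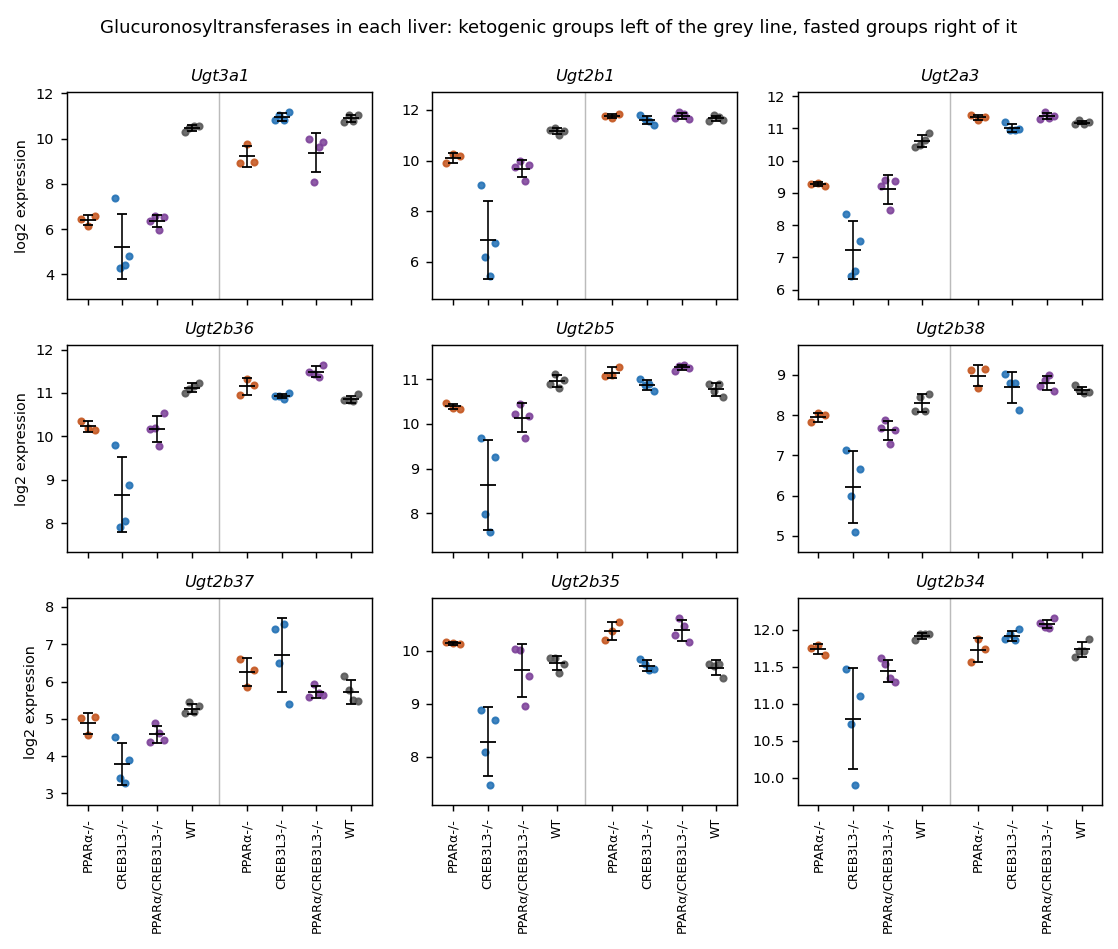
Log2 expression (vertical axis) of the 9 Ugt genes in each liver, with ketogenic groups left and fasted groups right of the grey line, WT last on each side; points are livers and bars the mean with SD (n = 3 for PPARα-/-, 4 otherwise). In every panel the ketogenic CREB3L3-/- livers had the lowest mean, and they spread widely (4.28 to 7.39 for *Ugt3a1*).

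The 4 ketogenic CREB3L3-/- livers spread widely. For all 9 Ugt genes liver 1 was the highest of the 4. Without it, the log2 fold change was -5.96 for *Ugt3a1* and -5.05 for *Ugt2b1*, and 21 of the 41 genes passed instead of 22. Markers of cell types and of zonation also differed in this group, where 16.7% of all genes were higher and 11.9% lower. Pericentral hepatocyte markers fell in 8 of 10 (summed level 11.34 to 13.36, against 14.28 to 14.62 in WT livers) and periportal markers in 5 of 7, with 1 higher (11.84 to 13.19, against 14.32 to 14.53). The general hepatocyte markers fell in 4 of 8 (15.04 to 15.43, against 15.70 to 15.83). Proliferation markers rose in 7 of 7 (10.84 to 11.80, against 6.76 to 8.28), stellate cell markers in 6 of 8 (11.66 to 12.20, against 11.32 to 11.48) and macrophage markers in 4 of 10 (12.35 to 12.60, against 11.48 to 12.03). Of the markers of other cells, those of cholangiocytes rose in 2 of 6 (8.34 to 9.10, against 7.18 to 7.51), those of neutrophils in 1 of 7 (6.89 to 10.06, against 6.31 to 7.42) and those of sinusoidal endothelium in 2 of 8, with 1 lower (11.15 to 11.69, against 11.36 to 11.57). Those of lymphocytes fell in 1 of 9 (6.16 to 6.52, against 6.50 to 7.25), and all 9 were below the overall median in each CREB3L3-/- liver. The counts for neutrophils, sinusoidal endothelium and lymphocytes lie near the shares over all genes and are not read as shifts. In bulk liver, fewer hepatocytes and less RNA per hepatocyte cannot be told apart, and the part of these shifts in the Ugt values was not tested. In ketogenic PPARα-/- and PPARα/CREB3L3-/- livers the hepatocyte sums were 15.48 to 15.56 and 15.56 to 15.69, and pericentral markers fell in 5 and 7 of 10. Macrophage markers fell in 6 of 10 in both (10.52 to 10.96 and 10.43 to 11.04, against 11.48 to 12.03 in WT livers) and stellate cell markers in 3 of 8 in both (10.85 to 11.08 and 10.91 to 11.37, against 11.32 to 11.48). Sinusoidal endothelium markers fell in 2 and 6 of 8, with 1 higher in the combined knockout (11.05 to 11.14 and 10.51 to 11.15, against 11.36 to 11.57), and lymphocyte markers in 4 and 2 of 9 (6.07 to 6.36 and 6.15 to 6.28, against 6.50 to 7.25). Over all genes, 7.15% were lower in PPARα-/- livers and 10.3% in PPARα/CREB3L3-/- livers. The part of these marker differences in the values of the 41 genes was not tested.

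Among the sulfotransferases, *Sult1e1* rose in 5 of the 6 knockout groups and *Sult2a8* fell in all 3 ketogenic ones. The Sult medians in the ketogenic groups were 0.07, -0.24 and 0.13 for PPARα-/-, CREB3L3-/- and PPARα/CREB3L3-/- livers, and 1, 1 and 3 genes rose while 1, 5 and 2 fell. After the fast, 2, 0 and 3 of the 15 rose in the same order and none fell. *Sult1e1*, the estrogen sulfotransferase, read 7.02, 7.03 and 8.26 in ketogenic PPARα-/- livers, 5.32, 5.25, 8.56 and 6.56 in CREB3L3-/- livers and 9.50, 9.21, 10.09 and 9.75 in PPARα/CREB3L3-/- livers, against 2.96, 2.98, 3.16 and 3.03 in WT livers. In the fasted state it read 9.40, 6.89 and 9.48 in PPARα-/- livers, 4.51, 3.53, 3.42 and 3.35 in CREB3L3-/- livers and 8.92, 8.03, 8.74 and 8.23 in PPARα/CREB3L3-/- livers, against 3.56, 4.53, 4.68 and 3.22 in WT livers. The CREB3L3-/- livers thus exceeded WT on the ketogenic diet without overlap (log2 fold change 3.39 ± 0.56, adjusted p = 2.07e-05) and lay within the range of WT livers after the fast (-0.29 ± 0.56, adjusted p = 0.904). On the ketogenic diet all livers of the combined knockout lay above all livers of both single knockouts, at 6.61 ± 0.56 over WT. The ketogenic WT livers read below the median of all values on the arrays, where signal and background of a probe set cannot be told apart in these values, so that the size of the *Sult1e1* rises is uncertain and may be understated.

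*Sult2a8*, which sulfates bile acids in mouse liver, ran the other way. It read 7.30, 6.78 and 6.46 in ketogenic PPARα-/- livers, 8.06, 4.53, 3.90 and 5.04 in CREB3L3-/- livers and 7.66, 7.34, 6.52 and 7.83 in PPARα/CREB3L3-/- livers, against 11.34, 11.44, 11.37 and 11.41 in WT livers. These were falls of 23.4-fold, 64.4-fold and 16.6-fold (log2 fold change -4.55 ± 0.53, -6.01 ± 0.49 and -4.06 ± 0.49, adjusted p = 2.68e-07, 2.11e-10 and 3.5e-07), and as for the Ugt genes, liver 1 was the highest of the CREB3L3-/- livers. Without liver 1 the log2 fold change there was -6.90. In the fasted groups it read 10.52, 10.86 and 10.17 in PPARα-/- livers, 11.56, 11.43, 11.48 and 11.44 in CREB3L3-/- livers and 10.90, 10.81, 11.04 and 11.41 in PPARα/CREB3L3-/- livers, against 11.52, 11.60, 11.63 and 11.52 in WT livers. The fasted differences of -1.05 ± 0.53 and -0.53 ± 0.49 without PPARα did not pass (adjusted p = 0.286 and 0.561).

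The other sulfotransferases moved by less and in both directions. *Sult5a1* read 5.19, 5.02, 3.47 and 4.87 in ketogenic CREB3L3-/- livers and 4.37, 4.36, 4.46 and 4.38 in PPARα/CREB3L3-/- livers, against 6.69, 6.35, 6.30 and 6.41 in WT livers, and fell in both (log2 fold change -1.80 ± 0.31 and -2.04 ± 0.31, adjusted p = 4.25e-05 and 1.48e-05). PPARα-/- livers read 5.93, 5.39 and 5.38 on the ketogenic diet, at -0.87 ± 0.34 (adjusted p = 0.0857), but 9.11, 8.37 and 7.05 after the fast, against 6.92, 7.18, 7.06 and 6.51 in fasted WT livers. The fasted rise of 1.26 ± 0.34 passed (adjusted p = 0.024) although its lowest liver lay within the WT range. The fasted CREB3L3-/- livers, at 6.09, 5.70, 6.26 and 5.68, and the combined knockout, at 6.53, 6.65, 6.50 and 6.69, did not pass.

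*Sult1c2* read 5.08, 5.39, 4.43 and 5.18 in ketogenic CREB3L3-/- livers, against 6.35, 6.02, 6.39 and 6.08 in WT livers (log2 fold change -1.19 ± 0.32, adjusted p = 0.00445). In fasted PPARα/CREB3L3-/- livers it read 7.40, 7.34, 7.33 and 7.73, against 4.91, 5.29, 5.40 and 5.97 in WT livers, a rise of 4.16-fold (2.06 ± 0.32, adjusted p = 6.06e-05). The gene thus passed in opposite directions in 2 knockouts, but each on a different regimen. Fasted CREB3L3-/- livers averaged 6.17, against 5.39 in WT livers, and ketogenic PPARα/CREB3L3-/- livers 6.12, against 6.21, and neither passed. The ketogenic minus fasted effect was negative in both knockouts (-1.97 and -2.15), so that the calls do not set the knockouts against each other. *Sult1a1*, the main phenol sulfotransferase, read 10.41, 10.48, 10.20 and 10.63 in ketogenic PPARα/CREB3L3-/- livers and 8.15, 7.74, 8.70 and 8.72 in CREB3L3-/- livers, against 9.49, 9.57, 10.02 and 9.66 in WT livers. It rose in the combined knockout (log2 fold change 0.74 ± 0.17, adjusted p = 0.00217) and fell without CREB3L3 alone (-1.36 ± 0.17, adjusted p = 4.61e-07). In fasted PPARα/CREB3L3-/- livers it rose again, at 11.21, 10.91, 11.03 and 10.96, against 10.19, 10.43, 10.40 and 9.88 in WT livers (0.80 ± 0.17, adjusted p = 0.0025). The rise was not particular to the combined knockout. PPARα-/- livers, at 10.32, 10.19 and 10.38 on the ketogenic diet and 10.59, 10.70 and 10.78 after the fast, also lay above every WT liver. They did not pass, at an unadjusted P under 0.05 on both regimens. *Sult1b1*, which sulfates thyroid hormones, read 5.0, 4.20, 4.85 and 5.11 in ketogenic CREB3L3-/- livers, against 6.18, 5.99, 6.67 and 6.45 in WT livers (-1.53 ± 0.22, adjusted p = 2.56e-06), and passed in no other group. *Sult1d1*, which acts on catecholamines in mice, passed only in ketogenic PPARα/CREB3L3-/- livers, where it rose by 0.85 ± 0.22 (adjusted p = 0.00465). Fasted PPARα-/- livers, at 11.49, 10.75 and 11.16, also lay above every WT liver (10.06 to 10.69) but did not pass. Of the 11 neighbours on chromosome 5, 9 thus fell in ketogenic CREB3L3-/- livers, *Sult1e1* rose and *Sult1d1* did not pass (-0.75 ± 0.22).

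**Figure D3:**
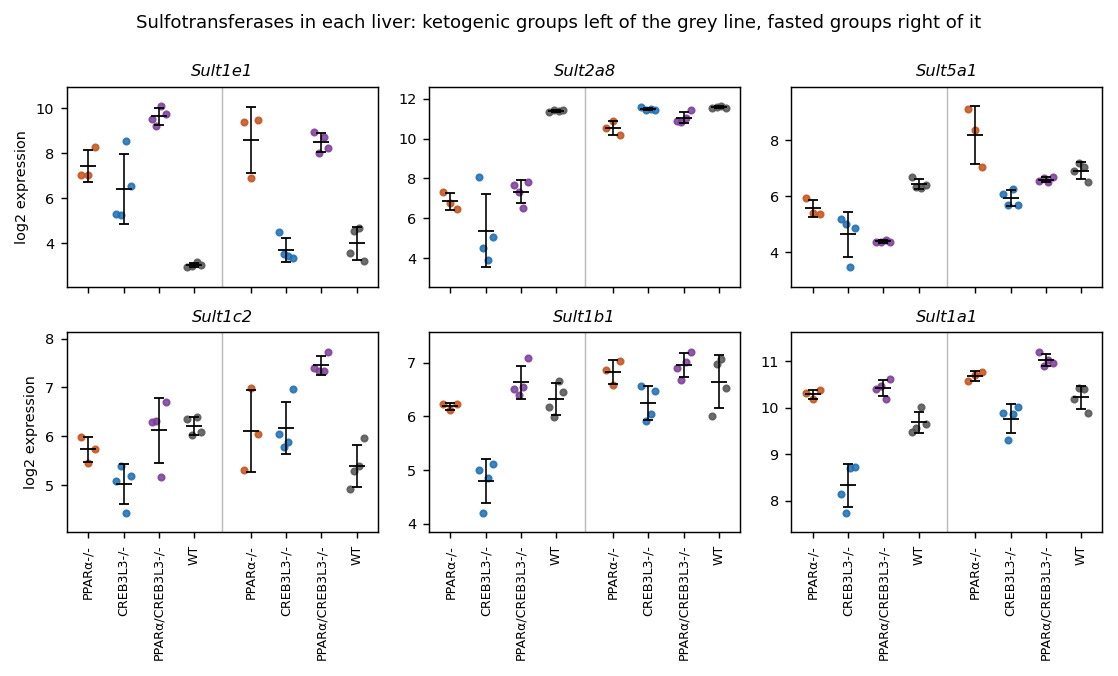
Log2 expression (vertical axis) of 6 Sult genes in each liver, with ketogenic groups left and fasted groups right of the grey line, WT last on each side; points are livers and bars the mean with SD (n = 3 for PPARα-/-, 4 otherwise). *Sult1e1* was at 9.21 to 10.09 in ketogenic PPARα/CREB3L3-/- livers, against 2.96 to 3.16 in WT livers, and *Sult2a8* was low in all 3 ketogenic knockouts.

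Glutathione transferases moved in both directions, also within a class. Mu-class genes (Gstm), which handle many electrophiles, rose where PPARα was absent: 3 of 6 in ketogenic PPARα-/- livers, 2 in ketogenic PPARα/CREB3L3-/- livers, and 2 and 3 in the fasted counterparts, with none lower in any of the 4. Over the whole Gst family the medians were 0.11, -0.18 and 0.05 in ketogenic PPARα-/-, CREB3L3-/- and PPARα/CREB3L3-/- livers and -0.11, -0.03 and 0.36 after the fast. *Gstm3* read 12.73, 13.09 and 12.99 in ketogenic PPARα-/- livers, 12.17, 10.23, 10.74 and 11.65 in CREB3L3-/- livers and 12.63, 12.95, 11.68 and 12.59 in PPARα/CREB3L3-/- livers, against 10.58, 10.10, 10.19 and 10.10 in WT livers. It rose by 2.69 ± 0.36 in PPARα-/- livers (adjusted p = 3.26e-06) and by 2.22 ± 0.34 in the combined knockout (adjusted p = 1.31e-05), whereas CREB3L3-/- livers overlapped with WT and did not pass (0.95 ± 0.34, adjusted p = 0.0314). After the fast *Gstm3* read 10.29, 11.65 and 12.13 in PPARα-/- livers, 9.45, 9.63, 9.40 and 9.25 in CREB3L3-/- livers and 11.92, 12.56, 12.44 and 11.82 in PPARα/CREB3L3-/- livers, against 9.84, 9.99, 10.00 and 9.84 in WT livers, and again both groups without PPARα rose (1.44 ± 0.36 and 2.27 ± 0.34).

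*Gstm2* was the only Gst gene to pass in 5 of the 6 comparisons. It read 10.24, 10.13 and 10.22 in ketogenic PPARα-/- livers, 9.72, 8.84, 8.29 and 9.23 in CREB3L3-/- livers and 9.81, 9.76, 9.54 and 9.98 in PPARα/CREB3L3-/- livers, against 8.16, 8.04, 8.62 and 8.25 in WT livers. The rises were 1.93 ± 0.21, 0.75 ± 0.20 and 1.5 ± 0.20, the smallest of them with overlapping livers. In the fasted groups it read 9.0, 9.45 and 9.82 in PPARα-/- livers, 8.03, 7.75, 8.10 and 7.85 in CREB3L3-/- livers and 9.51, 9.62, 9.50 and 9.26 in PPARα/CREB3L3-/- livers, against 8.20, 8.28, 8.47 and 8.18 in WT livers (1.14 ± 0.21, -0.35 ± 0.20 and 1.19 ± 0.20, with the single CREB3L3 knockout not passing). *Gstm6* rose in ketogenic PPARα-/- livers, at 10.03, 10.39 and 10.31, against 9.16, 8.90, 9.11 and 8.89 in WT livers (1.23 ± 0.28, adjusted p = 0.00246), a call lost with ketogenic arrays alone (limma, adjusted p = 0.0133) or without PPARα-/- liver 2 or 3 (adjusted p = 0.0165 and 0.0144). *Gstm1* rose in fasted PPARα/CREB3L3-/- livers by 0.36 ± 0.09 (adjusted p = 0.00629). These genes are close paralogs, and shared signal between their probe sets is possible.

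Pi- and theta-class genes rose in part. *Gstp3* read 9.30, 9.65 and 9.51 in ketogenic PPARα-/- livers and 9.41, 9.65, 8.81 and 9.39 in PPARα/CREB3L3-/- livers, against 8.69, 7.82, 7.94 and 7.45 in WT livers, and rose in both (1.52 ± 0.25 and 1.34 ± 0.23, adjusted p = 4.33e-05 and 5.63e-05), as it did in fasted PPARα/CREB3L3-/- livers at 7.86, 7.42, 7.96 and 8.15, against 6.79, 6.81, 6.62 and 6.59 in WT livers (1.14 ± 0.23, adjusted p = 0.00103). *Gstt3* read 9.02, 9.26 and 10.39 in fasted PPARα-/- livers and 10.10, 10.39, 10.17 and 10.07 in PPARα/CREB3L3-/- livers, against 8.03, 8.31, 8.30 and 8.19 in WT livers (1.35 ± 0.28 and 1.98 ± 0.25, adjusted p = 0.00279 and 4.62e-06). On the ketogenic diet only the combined knockout passed for *Gstt3*, at 8.86, 9.07, 8.82 and 9.27, against 7.16, 7.24, 8.16 and 8.24 in WT livers (1.30 ± 0.25). Another theta-class gene, *Gstt2*, ran the other way and fell in ketogenic PPARα-/- and CREB3L3-/- livers (-0.67 ± 0.14 and -0.71 ± 0.13) and in fasted PPARα-/- and PPARα/CREB3L3-/- livers (-1.09 ± 0.14 and -0.84 ± 0.13). *Gstt1* fell by 0.99 ± 0.13 in ketogenic CREB3L3-/- livers and rose by 0.51 ± 0.13 in fasted PPARα/CREB3L3-/- livers.

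*Gstk1*, the kappa-class enzyme of mitochondria and peroxisomes, fell in all 3 ketogenic knockouts. It read 10.02, 9.94 and 10.07 in PPARα-/- livers, 8.71, 7.98, 8.27 and 8.84 in CREB3L3-/- livers and 10.11, 10.19, 9.70 and 10.20 in PPARα/CREB3L3-/- livers, against 10.43, 10.73, 10.69 and 10.81 in WT livers. The groups did not overlap with WT, and the log2 fold changes were -0.65 ± 0.15, -2.21 ± 0.14 and -0.62 ± 0.14 (adjusted p = 0.00253, 2.78e-12 and 0.00166). After the fast it fell in PPARα-/- livers, at 10.30, 10.50 and 10.38, against 10.98, 10.99, 10.95 and 11.11 in WT livers (-0.62 ± 0.15, adjusted p = 0.0131), while CREB3L3-/- livers at 11.15, 11.16, 10.85 and 10.88 lay around WT. The alpha-class genes of ketogenic CREB3L3-/- livers went in opposite directions: *Gsta4*, which conjugates the lipid peroxidation product 4-hydroxynonenal, rose by 1.15 ± 0.22 (adjusted p = 0.000145) and *Gsta3* fell by 1.13 ± 0.19 (adjusted p = 2e-05). *Gsto1*, of the omega class, fell by 0.41 ± 0.07 in the same livers (adjusted p = 4e-05).

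**Figure D4:**
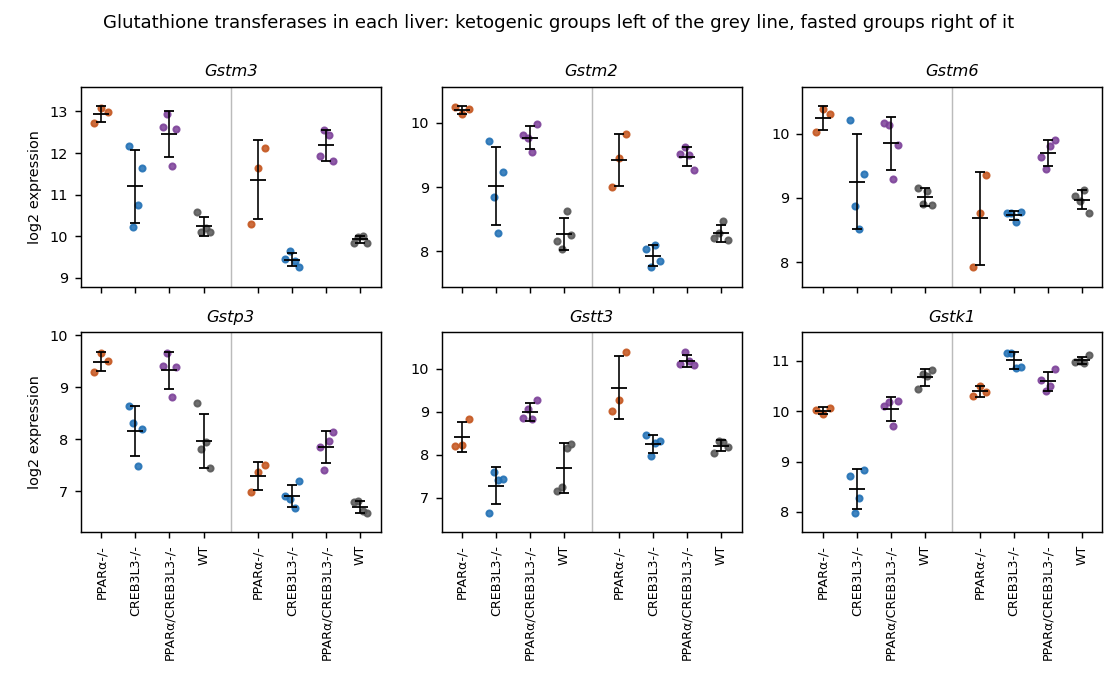
Log2 expression (vertical axis) of 6 Gst genes in each liver, with ketogenic groups left and fasted groups right of the grey line, WT last on each side; points are livers and bars the mean with SD (n = 3 for PPARα-/-, 4 otherwise). *Gstm3* and *Gstm2* lay above WT in the groups without PPARα on both regimens, and *Gstk1* was lowest in ketogenic CREB3L3-/- livers (7.98 to 8.84).

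Whether loss of CREB3L3 had the same effect with and without PPARα was asked with an interaction term, the difference between PPARα/CREB3L3-/- and PPARα-/- livers minus that between CREB3L3-/- and WT livers. On the ketogenic diet 15 of the 41 genes passed (background 21.2% of all genes), 14 with a positive and 1 with a negative term. Positive terms, meaning that loss of CREB3L3 lowered expression less, or raised it more, where PPARα was absent as well, were found for 6 of the 9 Ugt genes: *Ugt3a1* (5.21 ± 0.64), *Ugt2b1* (3.87 ± 0.58), *Ugt2a3* (3.23 ± 0.37), *Ugt2b36* (2.41 ± 0.34), *Ugt2b5* (2.07 ± 0.39) and *Ugt2b38* (1.75 ± 0.39). The other 8 were *Sult2a8* (6.50 ± 0.72), *Sult1b1* (1.98 ± 0.32), *Sult1a1* (1.5 ± 0.26), *Sult1d1* (1.40 ± 0.32), *Gstk1* (2.25 ± 0.21), *Gstt1* (1.05 ± 0.20), *Gstt2* (0.90 ± 0.20) and *Gsto1* (0.40 ± 0.10). The negative term was that of *Gstm2* (-1.18 ± 0.29), which rose in both single knockouts. The Ugt median of the term was 2.07, against 0.62 over the 41 genes and 0.04 over all genes. For *Ugt3a1* and *Sult2a8* the combined knockout nevertheless remained far below WT, at -4.11 and -4.06. PPARα-/- livers already averaged 6.39 and 6.85 for these genes. A further fall as large as that in CREB3L3-/- livers would have ended close to the lowest value on any array (0.698). Positive terms were thus nearly fixed in advance for *Ugt3a1* and *Sult2a8*, and their size does not measure how the effect of CREB3L3 loss differed. The probe sets shared by *Ugt3a2* and *Ugt3a1* had more room to fall, averaging 10.13, 10.49 and 9.97 in ketogenic PPARα-/- livers. Their terms passed at 3.62 ± 0.45, 3.02 ± 0.44 and 3.65 ± 0.45, but cannot be ascribed to *Ugt3a1* alone.

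Set directly against PPARα-/- livers, ketogenic PPARα/CREB3L3-/- livers differed in none of the 41 genes (background 3.44%), with 6 at an unadjusted P under 0.05 and 0 called by the IBMT variant. *Sult1e1* came closest, at 2.20 ± 0.61 higher in the combined knockout (adjusted p = 0.0459). The 9 Ugt differences were all negative, between -0.51 and -0.03, with 95% intervals such as -1.32 to 0.42 for *Ugt2b1*. After the fast 3 genes differed between these groups (background 2.41%): *Gstt1* (0.85 ± 0.14) and *Sult1c2* (1.34 ± 0.34) were higher and *Sult5a1* (-1.58 ± 0.34) lower in the combined knockout. That count was 5 with fasted arrays alone and 1 without PPARα-/- liver 1. The fasted interaction passed for *Gstt1* alone (0.97 ± 0.20, adjusted p = 0.0447, background 0.834%), and for 2 genes without CREB3L3-/- liver 4 or PPARα-/- liver 2 or 3.

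Ketogenic WT livers differed from fasted WT livers in 1 of the 41, *Gstp3*, which was higher at 8.69, 7.82, 7.94 and 7.45, against 6.79, 6.81, 6.62 and 6.59 (1.27 ± 0.23, adjusted p = 0.000998). The background was 3.6% higher and 1.63% lower, 10 of the 41 had an unadjusted P under 0.05, and 2 passed without ketogenic WT liver 3. The family medians were 0.07, -0.32 and -0.16 for Gst, Ugt and Sult genes.

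Differences of the knockout effects between regimens were tested next. The CREB3L3-/- effect on the ketogenic diet minus that in the fast passed for 18 of the 41 genes (background 18.9%), 15 of them negative, and for all 9 Ugt genes, with a median difference of -2.48. For the PPARα/CREB3L3-/- effect 8 passed (background 9.76%), 7 of them negative. The positive one was a dim Sult gene, with every group mean below the median of all values. For the PPARα-/- effect 4 passed (background 4.91%), namely *Gstm6* (1.52 ± 0.40), *Sult2a8* (-3.5 ± 0.74), *Sult5a1* (-2.13 ± 0.48) and *Ugt2a3* (-1.49 ± 0.39). The PPARα-/- count was 1 to 3 when any 1 liver was left out, and 1 without fasted PPARα-/- liver 1. For the CREB3L3-/- and PPARα/CREB3L3-/- effects the share of the 41 genes was above the background. The PPARα-/- count is too small and too dependent on single livers to be set above its background. Across both regimens, which have WT livers of their own, PPARα-/- livers were higher for *Gstm2*, *Gstm3* and *Sult1e1* and lower for *Gstk1* and *Gstt2*, and PPARα/CREB3L3-/- livers were higher for *Gstm2*, *Gstm3*, *Gstp3*, *Gstt3*, *Sult1a1* and *Sult1e1*.

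**Figure D5:**
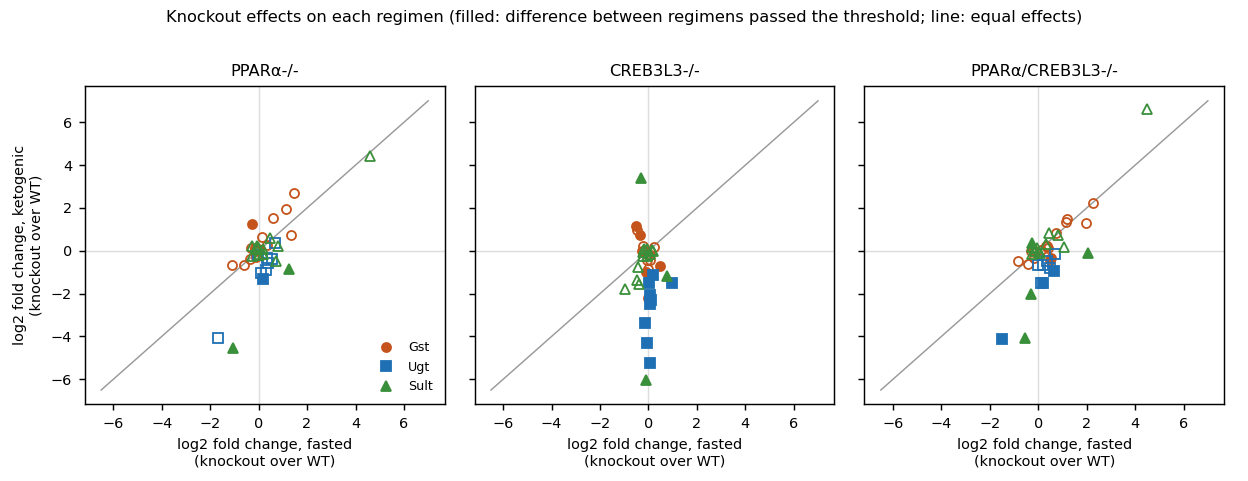
Log2 fold change over WT on the ketogenic diet (vertical axis) against that after the fast (horizontal axis) for each of the 41 genes, 1 panel per knockout, with symbols for the families, filled where the difference between regimens passed and a line for equal effects. In the CREB3L3-/- panel the 9 Ugt genes lie between -0.16 and 0.99 on the fasted axis, with *Ugt2b37* at 0.99, and between -5.24 and -1.12 on the ketogenic axis.

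Genes that work with the transferases were taken from lists of known function. Their counts stand beside the background shares already given, in ketogenic CREB3L3-/- livers 16.7% higher and 11.9% lower, and beside a median over all genes of -0.05 in those livers, and with 9 to 18 genes a list several counts lie near these shares. Of 13 genes for cofactor supply, 5 rose and 3 fell in ketogenic CREB3L3-/- livers, 5 rose and none fell in PPARα-/- livers and 2 rose and 2 fell in PPARα/CREB3L3-/- livers, with *Pgd*, which supplies NADPH for glutathione recycling, up in all 3 (2.41, 1.68 and 1.21 in that order). NRF2 target genes rose in 8 of 12 and fell in 2 in ketogenic CREB3L3-/- livers (median 1.35), rose in 5 in PPARα-/- livers (0.72) and rose and fell in 2 each in PPARα/CREB3L3-/- livers (0.16). In ketogenic CREB3L3-/- livers *Nfe2l2*, which encodes NRF2, was up by 1.10, but 9 of the 13 listed receptors and regulators fell, *Rxra* (-1.08) and the bile acid receptor gene *Nr1h4* (-1.12) among them. Of 16 transporters of conjugates and organic anions, 8 fell and 4 rose in the same livers: *Slc10a1*, the bile acid importer, fell by 3.64 and *Abcc4*, a conjugate exporter also counted among the NRF2 targets, rose by 3.74. Other conjugating enzymes that the symbol rule leaves out fell in 6 of 18 and rose in 3, where the share that rose did not exceed the background, with the methyltransferase gene *Inmt* at -6.34 and the glycine transferase gene *Glyat* at -1.31. Known CAR and PXR target genes fell in 4 of 11 in ketogenic CREB3L3-/- livers, and known PPARα target genes fell in 7, 3 and 8 of 9 in ketogenic PPARα-/-, CREB3L3-/- and PPARα/CREB3L3-/- livers and rose in 0, 2 and 1. Deconjugating enzymes rose in 0, 1 and 0 and fell in 1, 2 and 1 of 9 (medians -0.04, 0.06 and -0.21). Genes known to be higher in male than in female mouse liver fell in 5, 8 and 9 of 10 in ketogenic PPARα-/-, CREB3L3-/- and PPARα/CREB3L3-/- livers. Those known to be higher in female liver fell in 0, 2 and 1 of 9. These counts of falls alone do not show a shift towards the female pattern. Whether the falls bear on the transferases was not tested. After the fast, 3 of 12 NRF2 targets rose and 1 fell in PPARα-/- livers, none passed in CREB3L3-/- livers and 6 rose in PPARα/CREB3L3-/- livers (medians 0.37, 0.01 and 0.99), while PPARα targets fell in 7, 0 and 7 of 9 and rose in 0, 2 and 0.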

How the data were processed

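Liver RNA of 30 mice was hybridized 1 mouse per array. The authors normalized the arrays together with RMA, which corrects background, applies quantile normalization and summarizes probes, and deposited 1 log2 value per probe set; the version was not given in the sources used here, and no sequencing depth applies, so that the number of arrays limits the precision. The methods name a remapped chip definition, whereas the deposited identifiers are the manufacturer's transcript clusters, and genes were named through the platform annotation (21218 probe sets with 1 symbol, 1881 with several, 12457 with none). All 41 symbols are current in the RefSeq table.

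From these values a linear model with 8 groups was fitted to all 35556 probe sets and 30 arrays with limma 3.58.1 in R 4.3.3, with an intensity trend of the variance. A gene passed at P under 0.001 with a change of over 1.2-fold, the P as in the methods and the fold as in the study's figure legends, and p-values were adjusted across the whole array by the Benjamini-Hochberg procedure. Background percentages were counted over 18820 genes, 1 probe set each. The test was checked on simulated data. Genes were named where they passed in a comparison with WT, in an interaction or between WT groups; values of every liver are given for up to 6 per family with the largest change among calls without overlap, and up to 4 genes per list by lowest P. The genes, lists and tests were chosen with earlier results of these data known. Of 228 listed genes 200 were measured, and 1 of the 41, *Gstt4*, also stands in a list. Alternatives were the arrays of 1 regimen, a replicate block, other variance priors, median centring, a filter on dim probe sets, an adjusted p under 0.05, the mean of a gene's probe sets and leaving out each liver. Promoter windows were RefSeq's (GRCm38.p6) and were aligned with Biopython.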

Additional observations from a re-analysis of the deposited data

Results flagged for a closer look

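In 5 of 108 group and gene combinations of 4 livers, 1 liver lay apart from the other 3 by Dixon's criterion, and chance gives about 1 in 20. These livers read 8.62 for *Gstm6*, 4.51 for *Sult1e1* and 11.21 for *Ugt2a3* in fasted CREB3L3-/- mice, 7.73 for *Sult1c2* in fasted PPARα/CREB3L3-/- mice and 10.97 for *Ugt2b36* in fasted WT mice.

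The following effects differed between the ketogenic diet and the fast, as ketogenic minus fasted log2 fold change over WT. For the PPARα-/- effect the differences were 1.52 for *Gstm6*, -3.5 for *Sult2a8*, -2.13 for *Sult5a1* and -1.49 for *Ugt2a3*. For the CREB3L3-/- effect they were -5.30 for *Ugt3a1*, -4.24 for *Ugt2b1*, -3.23 for *Ugt2a3*, -2.53 for *Ugt2b36*, -2.43 for *Ugt2b5* and -2.15 for *Ugt2b38*. They were -5.92 for *Sult2a8*, 3.68 for *Sult1e1*, -1.97 for *Sult1c2*, -2.21 for *Gstk1* and 1.10 for *Gstm2*. For the PPARα/CREB3L3-/- effect they were -2.60 for *Ugt3a1*, -1.69 for *Ugt2a3*, -1.58 for *Ugt2b36*, -3.53 for *Sult2a8*, -2.15 for *Sult1c2* and -1.72 for *Sult5a1*. The adjusted p of *Gstm6*, the highest of the 21, was 0.0185.

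Of 15 probe sets that carry a conjugating enzyme's symbol together with others, 10 passed in at least 1 comparison with WT. In ketogenic CREB3L3-/- livers the probe set of the Ugt1a genes was at -1.71 and that of *Pomt2* and *Gstz1* at -1.58. The 3 shared by *Ugt3a2* and *Ugt3a1* were at -3.38, -3.03 and -3.40. The 4 shared by *Gsta1*, *Gsta2* and related genes were at 3.39, 3.5, 3.15 and 3.13. In ketogenic PPARα/CREB3L3-/- livers the probe set of *4933431E20Rik* and *Gstm5* was at 1.15.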

How the results depend on the processing

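Counts of genes that passed kept within 1.5 times of those given in 98 of 108 combinations of a comparison and another setting. Directions were followed only for the 18 genes given with every liver, each in the 1 comparison where its call without overlap was largest. None of them changed direction, which was unlikely from the outset for changes picked by size, and the other genes and comparisons were not followed. With the arrays of 1 regimen alone the counts were 6 and 9 in ketogenic PPARα-/- and PPARα/CREB3L3-/- livers, 11, 1 and 16 in fasted PPARα-/-, CREB3L3-/- and PPARα/CREB3L3-/- livers, and 5 for fasted PPARα/CREB3L3-/- over PPARα-/- livers. The cause was not tested. Ketogenic PPARα/CREB3L3-/- over PPARα-/- livers gave 1 with a replicate block and 1 at an adjusted p under 0.05, and ketogenic over fasted WT livers gave 2 with median centring and 2 at an adjusted p under 0.05. The block changed no other count beyond 1.5 times, and same-numbered livers of different groups did not deviate together (mean r = 0.00742 over 99 pairs, with 3 above 0.1). Leaving out 1 liver gave 1 to 3 genes for the PPARα-/- effect between regimens, 1 to 2 for ketogenic over fasted WT livers, and 0 to 1 for ketogenic PPARα/CREB3L3-/- over PPARα-/- livers. It gave 4 to 6 for fasted PPARα-/- livers (4 without WT liver 4 or PPARα-/- liver 3), 0 to 1 for fasted CREB3L3-/- livers, 1 to 2 for the fasted interaction and 1 to 4 for fasted PPARα/CREB3L3-/- over PPARα-/- livers. The rise of *Gstm6* in ketogenic PPARα-/- livers was the one single-gene call that was lost under a setting or without a liver, of the 18 followed. With 3 or 4 livers a group, small differences in dim genes were not detectable.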

Other observations

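Some conjugating enzymes fall outside the 41 because their probe sets carry several symbols. One of the 3 probe sets shared by *Gsta1*, *Gsta2*, *Gm10639* and *Gm3776* averaged 11.07 in ketogenic PPARα-/- livers, 11.67 in CREB3L3-/- livers and 10.35 in PPARα/CREB3L3-/- livers, against 8.28 in WT livers. Of the WT livers, liver 1 read 9.92 and the others 7.62 to 7.83. After the fast the averages were 8.52, 7.14 and 10.03 in the same order of knockouts, against 7.59 in WT livers, and the 4 PPARα/CREB3L3-/- livers lay between 9.99 and 10.09. *Gsta1* and *Gsta2* encode enzymes that conjugate epoxides and lipid peroxidation products, and which of the genes gave the signal cannot be told apart on this array.

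The probe set of the Ugt1a genes, which include the bilirubin-conjugating enzyme, averaged 8.09 in ketogenic CREB3L3-/- livers and 9.47 in PPARα/CREB3L3-/- livers, against 9.80 in WT livers, and liver 1 was again the highest of the CREB3L3-/- livers at 8.90. The second probe set of *Gstm3* averaged 12.35 in ketogenic PPARα-/- livers and 11.89 in PPARα/CREB3L3-/- livers, against 9.02 in WT livers, and 10.35 and 11.35 in their fasted counterparts, against 8.07 in fasted WT livers.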
